A study of Gallus gallus with 13 samples.

Results

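Cultures carrying any of 3 forms of the limb transcription factor HOXD13 were compared with cultures carrying another homeodomain factor, PITX1, or no insert. The 5 RNA libraries are part of a series of 13 samples. All 5 came from chicken micromass cultures, which are dense droplets of limb bud mesenchyme that form cartilage in the dish, made here from embryos at Hamburger-Hamilton stage HH24 and grown for 9 days. Every culture, the control included, was infected with a retrovirus of the RCASBP(A) type, added before plating. The viruses were RCASBP(A)-3xFLAG-mHoxd13(wt), RCASBP(A)-3xFLAG-mHoxd13(Q317K), RCASBP(A)-3xFLAG-mHoxd13(Q317R), RCASBP(A)-3xFLAG-cPITX1(wt) and RCASBP(A)-empty. The HOXD13 inserts therefore encode FLAG-tagged mouse proteins and the PITX1 insert a FLAG-tagged chicken protein. Q317K and Q317R replace the same glutamine of HOXD13, and the series title ties the HOXD13 mutations studied to limb malformation. There was 1 library for each virus, and the labels do not say how many cultures or embryos went into one.

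HOXD13 is the last gene of the HOXD cluster and works in the distal limb bud, where it takes part in patterning the digits and in the growth of their cartilage. Like PITX1, it binds DNA through a homeodomain, a fold whose recognition helix reads the bases of a short AT-rich site. PITX1 belongs to the bicoid-related class, whose members carry a lysine at a position of that helix where HOX proteins carry a glutamine, and in the embryo it is made in the hindlimb bud, where it specifies leg identity. Setting the 3 HOXD13 forms against both other libraries asks which transcripts differed whenever a HOXD13 form was carried, whatever residue it had at that glutamine, both from the virus alone and from another homeodomain protein.

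Each gene was described by RPKM, reads scaled to transcript length and to library total, and by the difference of mean log2(RPKM + 1), the 3 HOXD13 libraries minus the 2 others. A gene was called above when all 3 HOXD13 values were higher than both others, and below when all 3 were lower. The gap is the log2 distance from the nearest HOXD13 form to the nearest other library. With 1 library per virus there is no replicate error within a virus, and an exact two-sided permutation test over 3 and 2 libraries could not go under p = 0.1, so no test was made. The 5 libraries held between 14069766 and 16793118 reads, and the counting intervals given below cover counting error only.

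Of 13201 genes with at least 5 RPKM in any of the 5 libraries, 1734 (13.1%) lay above and 957 (7.25%) lay below. Above genes thus made up 64.4% of the 2691 that did not overlap, a share that was 54.2% after scaling the libraries by median-of-ratios size factors. These 2691 were 20.4% of all genes. If the 5 values of a gene fell in random order, the HOXD13 libraries would be highest in a single arrangement of the 10 possible, and lowest in another. Separation alone was therefore not read as an effect of the insert. In bulk RNA, fewer cells of a type and less RNA per cell cannot be told apart. Most of these genes were close to the other libraries. The difference was under 0.5 in size for 1418 of the above genes (81.8%) and for 646 of the below genes (67.5%), and the counting interval crossed 0 for 151 and 111 of them. The median difference over all genes was 0.02. A difference of at least 2-fold was seen in 69 above genes (0.523% of all) and 77 below genes (0.583%). In only 9 genes (0.0682%) was every HOXD13 form at least 2-fold above both others, and in 7 (0.053%) every form was at least 2-fold below. With a library left out, fewer values have to be separated, and the means change too. Random order also separates more genes when PITX1 or the empty vector is left out than when a HOXD13 form is. The counts that follow therefore do not rank the libraries. Without Q317K the 2-fold counts were 180 above and 180 below, without PITX1 104 and 202, without the empty vector 185 and 229, without wild type 97 and 92, and without Q317R 67 and 85. The counts of genes above and below at any size were 3100 and 2001 without Q317K, 4064 and 4268 without PITX1, 4087 and 2223 without the empty vector, and 2188 and 1789 without Q317R. The counts with every form at least 2-fold away were 49 above and 39 below without Q317K, 21 and 74 without PITX1, 31 and 100 without the empty vector, 31 and 13 without wild type, and 18 and 20 without Q317R.

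**Figure D1:**
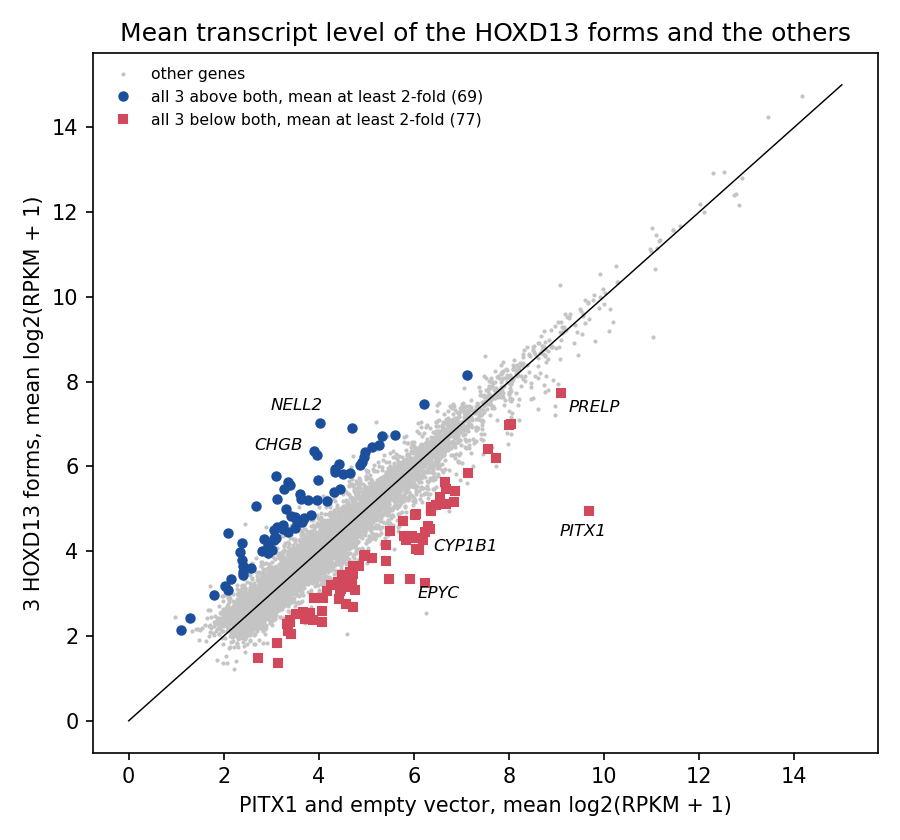
Mean log2(RPKM + 1) of the 3 HOXD13 libraries against that of the PITX1 and empty vector libraries, 1 point per gene (13201 genes). Coloured points are the 69 genes above and the 77 genes below that were at least 2-fold apart; PITX1, at 10233 RPKM in the PITX1 library, lies farthest under the diagonal.

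The genes carried by the viruses came first as a check of the labels. The HOXD13 row stood at 63.4 RPKM in HOXD13 wt, 36.8 in Q317K and 53.7 in Q317R, against 13.1 in PITX1 and 16.6 in the empty vector. All 3 HOXD13 libraries were above both others, with a difference of 1.698 and a gap of 1.11. The row is the chicken gene and the virus carried the mouse one, so the level measures chicken HOXD13 RNA plus whatever part of the mouse insert matched it. PITX1 stood at 28.9 RPKM in HOXD13 wt, 36.4 in Q317K and 24.8 in Q317R, against 10233 in PITX1 and 64.5 in the empty vector. The PITX1 library was far higher than the rest, and the 3 HOXD13 libraries were also lower than the empty vector, with a mean log2 difference of −1.09. The cartilage identity of the cultures was visible in all libraries: COL2A1, the main collagen of cartilage, ranged from 1983 RPKM in Q317K to 15370.3 in the empty vector, and SOX9, the master factor of chondrocytes, from 129 in Q317K to 338 in the empty vector.

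Among genes above with a symbol the largest difference was that of NELL2, a secreted glycoprotein with EGF-like repeats known from neurons, at 84.5 RPKM in HOXD13 wt, 136 in Q317K and 191 in Q317R, against 26.6 in PITX1 and 8.68 in the empty vector. Every HOXD13 library was well over both others, with a gap of 1.63 and a difference of 3.003 (95% counting interval 2.92 to 3.08). Further values are given in the same order, HOXD13 wt, Q317K and Q317R against PITX1 and the empty vector. TMTC1, a membrane protein of the endoplasmic reticulum that adds mannose to cadherins, stood at 179, 43.5 and 67.4 against 9.68 and 19.9 RPKM. LRRC3B, a membrane protein with leucine-rich repeats, stood at 32.3, 10.6 and 24.7 against 2.94 and 3.61 RPKM. ITM2C, an integral membrane protein of the BRI family, stood at 62.4, 28.9 and 26.6 against 6.18 and 9.66 RPKM. In each of these genes the groups were separated by a gap over 1, with differences of 2.45 for TMTC1, 2.33 for LRRC3B and 2.09 for ITM2C, and wild type was the highest form. TMEFF2, a membrane protein with follistatin-like and EGF-like domains, was the most even of this set at 36.96, 30.3 and 26.1 against 8.51 and 9.41 RPKM. Its gap of 1.38 was close to its difference of 1.68, since both groups were tight. C8orf22, at 40.9, 64.05 and 31.04 against 11.6 and 6.38 RPKM, also had every form at least 2-fold above both others.

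Wild type led strongly in other genes. CHGB, a granin stored in secretory vesicles, stood at 359, 48.98 and 25.1 against 12.7 and 16.8 RPKM. BMP6, a bone morphogenetic protein of maturing cartilage, stood at 125, 14.7 and 51.9 against 6.59 and 13.7 RPKM. Both were separated, but in BMP6 the Q317K library was just over the empty vector (gap 0.096), so that the difference of 2.16 rested on wild type and Q317R. SERPINI1, the protease inhibitor neuroserpin, was highest in Q317R, at 48.3, 8.898 and 74.4 against 5.604 and 5.27 RPKM, and its Q317K value was likewise the one nearest to the other libraries. ISM1, the secreted protein isthmin, stood at 123, 55.4 and 41.9 against 18.5 and 22.6 RPKM, and MXRA5, an adhesion protein of the matrix, at 125, 44.1 and 39.4 against 18.1 and 20.5 RPKM. Here wild type was well over the mutants, and the mutants were again over both other libraries, with differences of 1.64 for ISM1 and 1.59 for MXRA5.

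**Figure D2:**
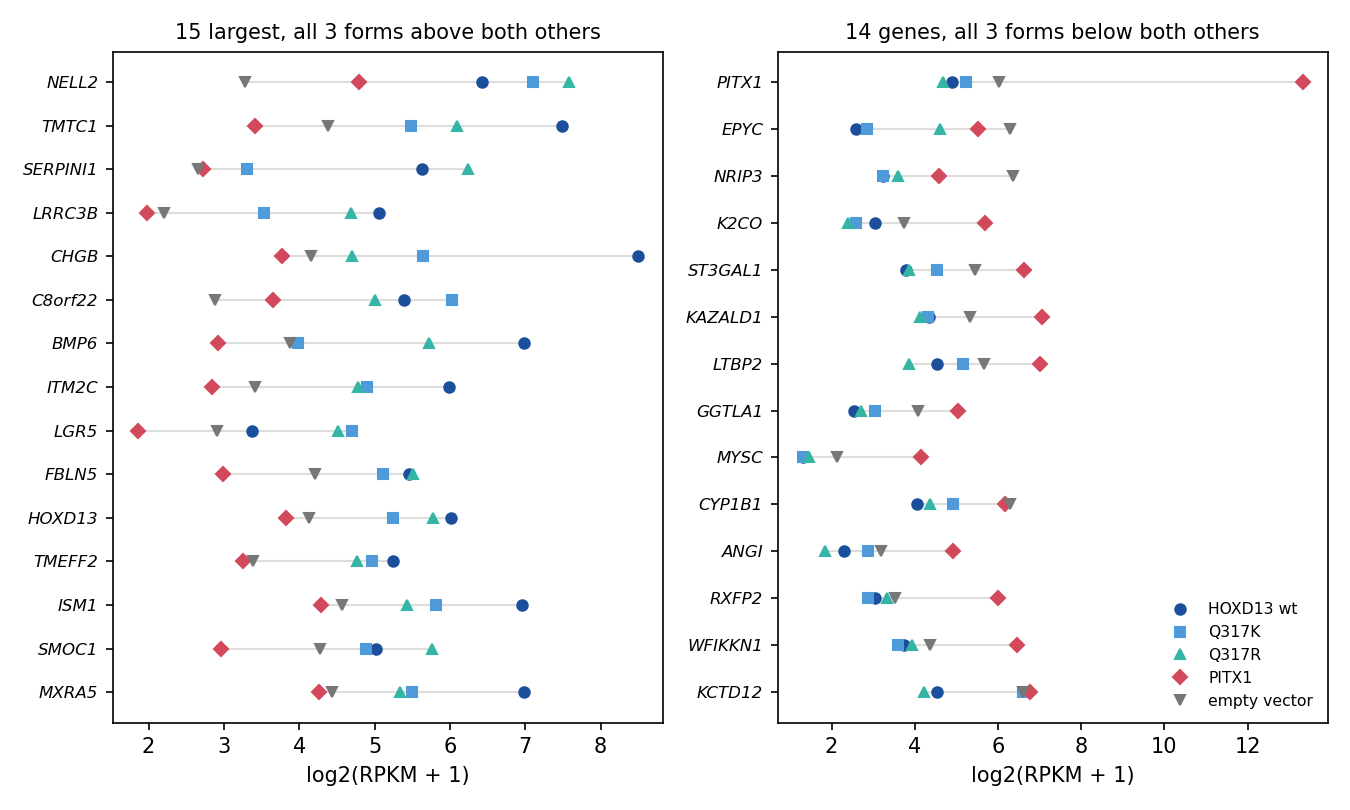
Level as log2(RPKM + 1) in each of the 5 libraries for the 15 genes with the largest difference above and 14 of those below, 1 point per library. In NELL2, TMEFF2 and ITM2C all 3 HOXD13 points are clear of both others, and in BMP6 and KCTD12 the Q317K point lies next to the empty vector.

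A few matrix genes and BMP antagonists were also found on the high side, beside 13.1% of all genes. Above were 1 of 10 measured elastic fibre and lysyl oxidase genes and 1 of 15 tendon and fibroblast genes. So were 2 of 17 BMP and TGF-beta genes, while none of 15 cartilage matrix genes was. FBLN5, which links elastic fibres to cells, stood at 42.8, 33.4 and 44.6 against 6.92 and 17.5 RPKM. The forms were close together and all over both others, with a difference of 1.76. Of the 10 measured elastic fibre and lysyl oxidase genes 3 were below (given below), beside 7.25% of all genes. The differences of those not separated ran from −1.54 for ELN, −1.11 for LOXL3 and −0.62 for LOXL4 up to 0.71 for MFAP5. SMOC1, a matricellular protein that restrains BMP signalling and is needed for limb development, stood at 31.4, 28.5 and 53.2 against 6.801 and 18.4 RPKM (difference 1.598). ASPN, a small leucine-rich protein of connective tissue, stood at 50.2, 123 and 42.2 against 23.2 and 34.4 RPKM, with Q317K highest and a difference of 1.15. GREM1, the BMP antagonist that sustains the signalling loop of the limb bud, stood at 18.4, 23.7 and 28.3 against 10.2 and 17.4 RPKM. The lowest form of GREM1, wild type, was barely above the empty vector (gap 0.079), and the difference was 0.75.

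In the WNT pathway, which signals through Frizzled receptors to beta-catenin, 4 of 18 measured genes were above and 1 was below, beside 13.1% and 7.25% of all genes. The median difference was −0.08, against 0.02 for all genes, and lay between −0.24 (without wild type) and 0.054 (without the empty vector) when 1 library was left out. After scaling by size factors 2 were below, FZD7, a Frizzled receptor, being the one added. The count below over all genes rose from 957 to 1217 with that scaling. LGR5, the receptor for R-spondins, stood at 9.36, 25.04 and 21.8 against 2.62 and 6.52 RPKM. RSPO2, an R-spondin ligand that keeps WNT receptors on the cell surface and is active in the limb ectodermal ridge, stood at 9.78, 7.11 and 10.96 against 3.45 and 5.51 RPKM. Receptor and ligand were both higher in every HOXD13 library, with differences of 1.81 and 0.92. WIF1, a secreted inhibitor that binds WNT proteins, stood at 40.6, 38.98 and 28.7 against 16.5 and 9.7005 RPKM (difference 1.42), and the ligand WNT11 at 8.31, 4.94 and 9.28 against 4.17 and 4.76 RPKM (difference 0.60). SFRP1, another secreted WNT antagonist, was the one below, at 47.2, 63.4 and 38.5 against 76.95 and 78.4 RPKM, with a difference of −0.66. Ligands, a receptor and an antagonist were thus all among the genes above.

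Among the genes below that have a symbol, EPYC, a small proteoglycan of growth cartilage, had the largest difference after PITX1, −2.56. It stood at 5.03, 6.23 and 23.2 against 45.2 and 77.1 RPKM, with Q317R the highest form, still under both others. NRIP3, a gene named for binding nuclear receptors, stood at 8.39, 8.36 and 11.1 against 23.1 and 81.2 RPKM. KAZALD1, a secreted protein related to the IGF-binding proteins, stood at 19.4, 19.04 and 16.4 against 133 and 39.1 RPKM. The forms were alike in NRIP3 and KAZALD1, while of the others the empty vector was highest in NRIP3 and PITX1 in KAZALD1. CYP1B1, a cytochrome that metabolises oestrogens and retinoids, stood at 15.6, 29.4 and 19.7 against 71.3 and 77.4 RPKM. GGTLA1, of the gamma-glutamyltransferase family, stood at 4.79, 7.22 and 5.52 against 32.1 and 16.01 RPKM. RLBP1, a carrier of retinaldehyde, stood at 8.38, 7.32 and 8.22 against 25.7 and 19.5 RPKM. Every HOXD13 form was at least 2-fold below both others in these 3 genes, with differences of −1.78, −1.81 and −1.38. CA4, a membrane carbonic anhydrase, met the same condition at 2.95, 3.69 and 3.45 against 8.96 and 9.51 RPKM.

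ST3GAL1, a sialyltransferase of the Golgi, stood at 12.9, 22.2 and 13.5 against 97.1 and 42.9 RPKM, and LTBP2, which associates with elastic microfibrils, at 22.1, 34.6 and 13.6 against 129 and 49.8 RPKM. WFIKKN1, a secreted protein that binds myostatin and GDF11, stood at 12.4, 11.1 and 14.4 against 86.4 and 19.5 RPKM. In these genes the PITX1 library was the highest of all 5 and the empty vector lay between it and the HOXD13 forms; the differences were −1.97, −1.82 and −1.65. RXFP2, a receptor for insulin-like peptide hormones, stood at 7.297, 6.36 and 9.04 against 63.3 and 10.5 RPKM, and an entry labelled only K2CO at 7.23, 5.05 and 4.29 against 50.4 and 12.3 RPKM. For RXFP2 the HOXD13 forms averaged −2.92 against PITX1 and only −0.44 against the empty vector. KCTD12, at 22.02, 95.4 and 17.7 against 108 and 95.8 RPKM, marked the edge of the rule, because its Q317K value was just under that of the empty vector (gap 0.0058). FLT1, a VEGF receptor, was nearer still, with 3.153 RPKM in Q317K and 3.156 in the empty vector. Both overlapped after scaling by size factors. On the high side AURKA, a kinase of cell division, just failed to be above, with 13.1 RPKM in wild type and 13.2 in PITX1, and so overlapped. MYSC and ANGI, entries printed as labelled, also had large negative differences, at 1.47, 1.505 and 1.73 against 16.9 and 3.38 RPKM and at 3.902, 6.36 and 2.58 against 29.4 and 8.16 RPKM. The ANGI difference of −1.72 was −0.46 and overlapped when the longest transcript stood for the gene.

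The 2 libraries on the other side did not count equally. Of the 69 genes at least 2-fold above, 62 were 2-fold from PITX1, 50 from the empty vector and 43 from each. Of the 77 at least 2-fold below, 62 were 2-fold from PITX1, 44 from the empty vector and 29 from each. Of the 77 below genes, 16 were under 1.5-fold from the empty vector and 1 was under 1.5-fold from PITX1. For those 16 the difference lay mostly between the HOXD13 forms and the PITX1 library. The PITX1 library also stood apart in the summed level of the 3 blood markers that passed the RPKM filter, most of it HBE. They summed to 868 RPKM there and to 11.5 to 20.3 RPKM in the HOXD13 libraries, and their part in these differences was not tested. The globins HBAA, HBAD and HBZ, under the filter, were not raised in that library. STRA6, the receptor that takes up vitamin A, was one of the 16 genes under 1.5-fold from the empty vector, at 9.38, 7.82 and 9.46 against 52.03 and 11.6 RPKM. PTGS2, the inducible prostaglandin synthase, was another of the 16, at 22.4, 21.1 and 15.8 against 113 and 25.7 RPKM. B3GNT7, a Golgi glycosyltransferase, was of the other kind, with −1.57 against the empty vector and −0.56 against PITX1, at 16.7, 11.1 and 14.8 against 21.2 and 43.6 RPKM. On the high side ADAMTS3, a procollagen II propeptidase, stood at 198, 151 and 179.7 against 36.7 and 145 RPKM. Its HOXD13 mean was 2.22 over PITX1 and 0.27 over the empty vector.

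**Figure D3:**
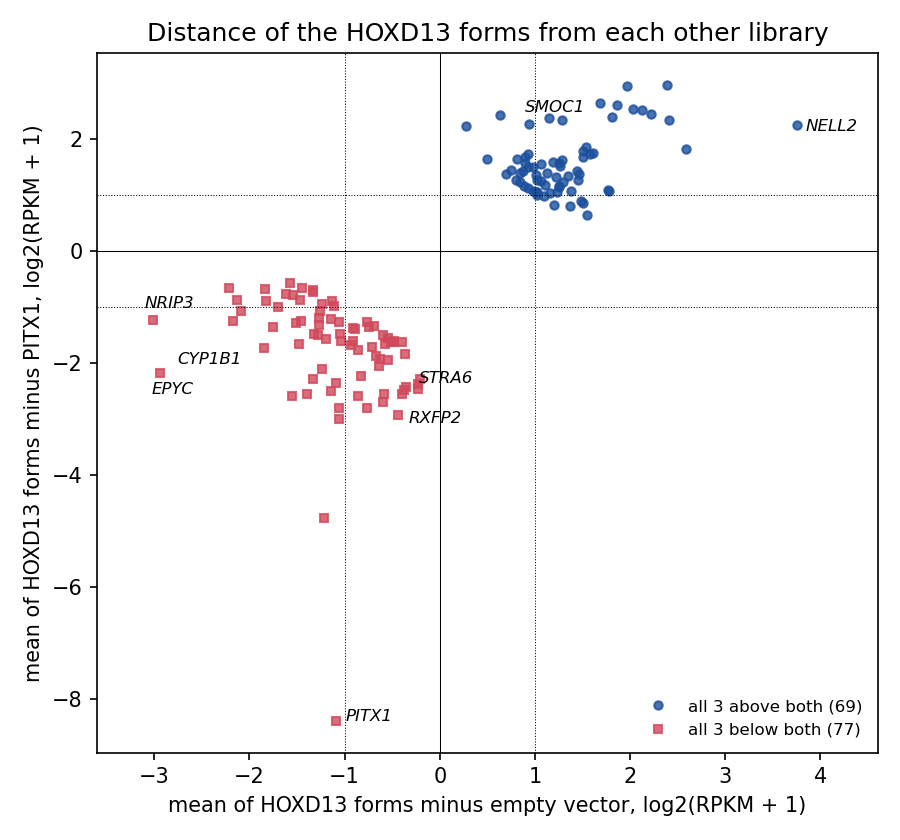
Difference of the HOXD13 mean from the empty vector (horizontal axis, log2) against its difference from PITX1 (vertical axis, log2), 1 point for each of the 146 separated genes at least 2-fold apart; dotted lines mark 2-fold. Points such as RXFP2 and STRA6 lie close to 0 on the horizontal axis and far below 0 on the vertical axis.

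The 3 forms also differed among themselves inside these sets. Among the 69 above genes the farthest form from the others was wild type in 31, Q317K in 17 and Q317R in 21, and Q317K was the nearest in 34. The median log2 distance of each form from the mean of the others was 1.42 for wild type, 1.20 for Q317K and 1.39 for Q317R. The range of the 3 forms had a median of 1.20 there, wider than the median range of 0.38 between the 2 other libraries, and in 26 genes it was wider than the difference itself. A range over 3 libraries tends to be wider than a range over 2, so the medians are not like for like. Among the 77 below genes the forms had a median range of 0.56 against 0.96 for the others, and 14 had a range wider than the difference. Both sets were chosen on these same values, and log2(RPKM + 1) narrows the range of low levels. Their ranges were therefore not read as a property of the forms. Q317K was nearest to the others in 39 of these 77. The median distances were −1.37 for wild type, −1.21 for Q317K and −1.38 for Q317R.

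A mean difference of 2-fold did not require separation. It was reached by 108 genes on the high side (0.818%) and 130 on the low side (0.985%), of which 39 and 53 overlapped. Some of these genes separated when 1 library and no other was left out. That library was Q317K in 10, PITX1 in 5, the empty vector in 3, wild type in 2 and Q317R in 1. Genes that separated on leaving out either of 2 libraries, such as FN1, are not in these counts. CHRDL2, an antagonist of BMPs, stood at 576, 7.47 and 89.7 against 9.88 and 62.5 RPKM. Wild type and Q317R were over both others, while Q317K was the lowest of the 5 libraries, and the difference was 1.54. MSTN, the muscle growth inhibitor myostatin, stood at 4.45, 0.848 and 14.8 against 1.004 and 0.948 RPKM, and MATN4, a matrilin of cartilage, at 1586, 488 and 2489 against 542 and 531 RPKM. In both, Q317K again was the form that crossed. SLC28A2, a nucleoside transporter, crossed through Q317K as well, at 48.02, 7.48 and 84.03 against 11.96 and 9.97 RPKM. CPZ, a carboxypeptidase that binds WNT proteins, crossed through wild type, at 4.996, 56.9 and 35.8 against 8.07 and 6.68 RPKM.

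Cartilage matrix genes had a median below the empty vector and near PITX1, and Q317K was the lowest library for many of them. Of 15 measured, none was above and 2 were below, beside 13.1% and 7.25% of all genes, as for the other lists of this paragraph. The median difference was −0.67 against 0.02 for all genes. The median was −1.61 against the empty vector and 0.10 against PITX1, and against both it was 0.073 without the Q317K library and −1.28 without Q317R. The 2 genes below were EPYC and PRELP, a leucine-rich anchor between matrix and basement membrane, which stood at 354, 234 and 114 against 502 and 584 RPKM. ACAN, the aggregating proteoglycan of cartilage, stood at 281, 59.9 and 656 against 208 and 969 RPKM. Its highest HOXD13 value, in Q317R, was under the empty vector and far over PITX1, so that it overlapped. COL2A1 had the same pattern, at 4279, 1983 and 11296 against 3437 and 15370.3 RPKM. The summed level of the list was 21810 RPKM in the empty vector, 18115 in Q317R, 8319 in wild type, 6071 in PITX1 and 3475 in Q317K. Of 12 sulfation and chondroitin enzymes, which load the proteoglycans with sulfated chains, 1 was above and none below, with a median of −0.16, which was −0.63 against the empty vector alone, 0.42 against PITX1 alone, 0.017 without Q317K and −0.33 without Q317R. That gene was UST, a uronyl sulfotransferase, at 14.9, 9.88 and 9.02 against 7.39 and 8.47 RPKM. Of 10 hypertrophic cartilage and bone genes none was separated, with a median of 0.13. That median was −0.70 without Q317K, 0.72 without Q317R, 0.28 without wild type, −0.17 against the empty vector alone and 0.61 against PITX1 alone, so its sign turned on the libraries used. COL10A1, the collagen of hypertrophic cartilage, stood at 502, 14.95 and 40.3 against 19.7 and 67.7 RPKM, with Q317K lowest. In ALPL, IFITM5, IBSP, PANX3, PHOSPHO1 and SPARC, in contrast, Q317K was the highest library. ALPL stood at 61.7, 668 and 55.3 against 62.6 and 151 RPKM, and IBSP at 10.96, 236 and 10.7 against 17.2 and 42.8 RPKM.

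Fibrous and elastic matrix genes were split, and the counts here also stand beside 13.1% above and 7.25% below among all genes. Of 15 tendon and fibroblast genes 1 was above, ASPN, and 1 was below, THBS2, a matricellular thrombospondin, at 28.9, 60.7 and 19.9 against 94.4 and 80.98 RPKM. The median was −0.31, with −0.41 against the empty vector alone, −0.21 against PITX1 alone and −0.054 without Q317R. FN1, fibronectin, overlapped by Q317K alone against the empty vector, at 254, 1371 and 430.2 against 3221 and 1344 RPKM. Of 10 elastic fibre and lysyl oxidase genes 1 was above and 3 were below, with a median of −0.68 that was −0.71 against the empty vector alone and −0.27 against PITX1 alone. The 3 below were LTBP2, LTBP1 at 271, 137 and 189 against 423 and 291 RPKM, which holds latent TGF-beta in the matrix, and the crosslinking enzyme LOXL2 at 123, 125 and 64.4 against 135 and 209 RPKM. FBLN5 was the one above. Of 17 BMP and TGF-beta genes 2 were above, BMP6 and GREM1, and 1 was below, the ligand TGFB3 at 102, 232 and 86.6 against 253 and 276 RPKM. The median was 0.48, with 0.15 against the empty vector alone and 0.42 against PITX1 alone.

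**Figure D4:**
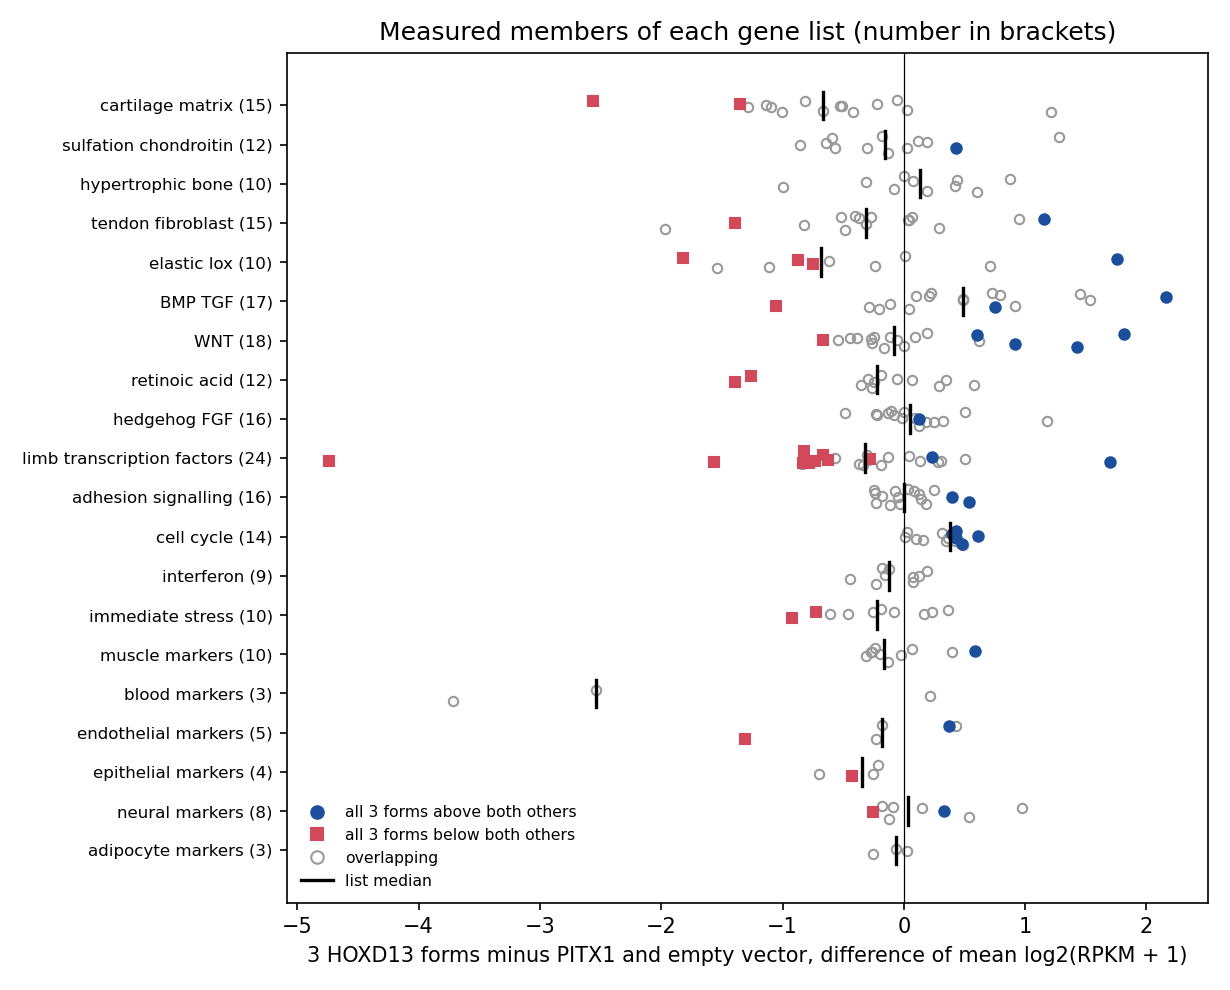
Difference of mean log2(RPKM + 1), HOXD13 forms minus PITX1 and empty vector, for each measured member of the 20 gene lists, 1 point per gene, with the list median as a bar. Coloured points are members that lay above or below both others. The limb transcription factor list has 9 below, the virus-carried PITX1 included, and the cell cycle list 5 above. Among all genes 13.1% lay above and 7.25% below.

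Transcription factors of limb identity and patterning held the most separated members of any list. Of 24 measured, 2 were above and 9 were below, beside 13.1% above and 7.25% below among all genes. These counts include the genes carried by the viruses, HOXD13 among those above and PITX1 among those below. The median was −0.32, with −0.45 against the empty vector alone and −0.050 against PITX1 alone. After scaling by size factors HOXD13 alone was above and 10 were below, HOXA9 being the one added. Over all genes that scaling moved the counts from 1734 to 1443 above and from 957 to 1217 below. Of the 9 below as deposited, 4 were HOX genes at the 5′ end of their clusters, which pattern the limb from shoulder to digit. HOXA11 stood at 9.66, 12.5 and 11.8 against 16.3 and 20.9 RPKM. HOXD11 stood at 9.13, 9.69 and 8.48 against 9.97 and 24.6 RPKM. HOXD12, the neighbour of HOXD13 in the cluster, stood at 11.1, 11.9 and 9.44 against 15.1 and 24.5 RPKM. In all of these the empty vector was the highest library and PITX1 lay between it and the HOXD13 forms, with differences of −0.67, −0.73 and −0.78. HOXD11 was only just separated, since its gap to PITX1 was 0.037. HOXA10 is named on 2 Ensembl genes, so its level is uncertain; the one of higher level stood at 19.4, 30.4 and 24.2 against 37.2 and 51.999 RPKM and the other at 4.92, 10.04 and 7.74 against 19.3 and 22.6 RPKM, both below. HOXA13, the paralogue of HOXD13, overlapped at 22.6, 35.5 and 32.9 against 29.3 and 39.7 RPKM, as did HOXA9, HOXD9 and HOXD10.

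In PITX3 and TBX3 the PITX1 library was the high one. PITX3, known from lens and midbrain, stood at 9.19, 9.22 and 10.5 against 21.9 and 10.7 RPKM. TBX3, a repressor expressed at the anterior and posterior limb margins, stood at 14.8, 16.8 and 15.9 against 36.5 and 22.7 RPKM. In both the forms were within a narrow range of each other below the empty vector, with differences of −0.63 and −0.82. PITX3 was only just separated, with 10.5 RPKM in Q317R against 10.7 in the empty vector. PITX3 shares a homeodomain with the PITX1 carried by the virus, and how reads of the insert were shared between these rows was not tested. SALL4, a zinc finger factor of limb and stem cells, was below by a small margin at 3.49, 4.08 and 3.32 against 4.15 and 5.07 RPKM. HAND2, which sets up the posterior limb organiser, was above by a small margin at 25.6, 28.8 and 22.9 against 21.995 and 21.3 RPKM, and overlapped after scaling by size factors. TBX5 and TBX4, the factors of forelimb and hindlimb, overlapped, at 17.6, 10.8 and 19.3 against 16.2 and 49.4 RPKM and at 36.7, 26.8 and 29.02 against 13.2 and 34.1 RPKM.

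**Figure D5:**
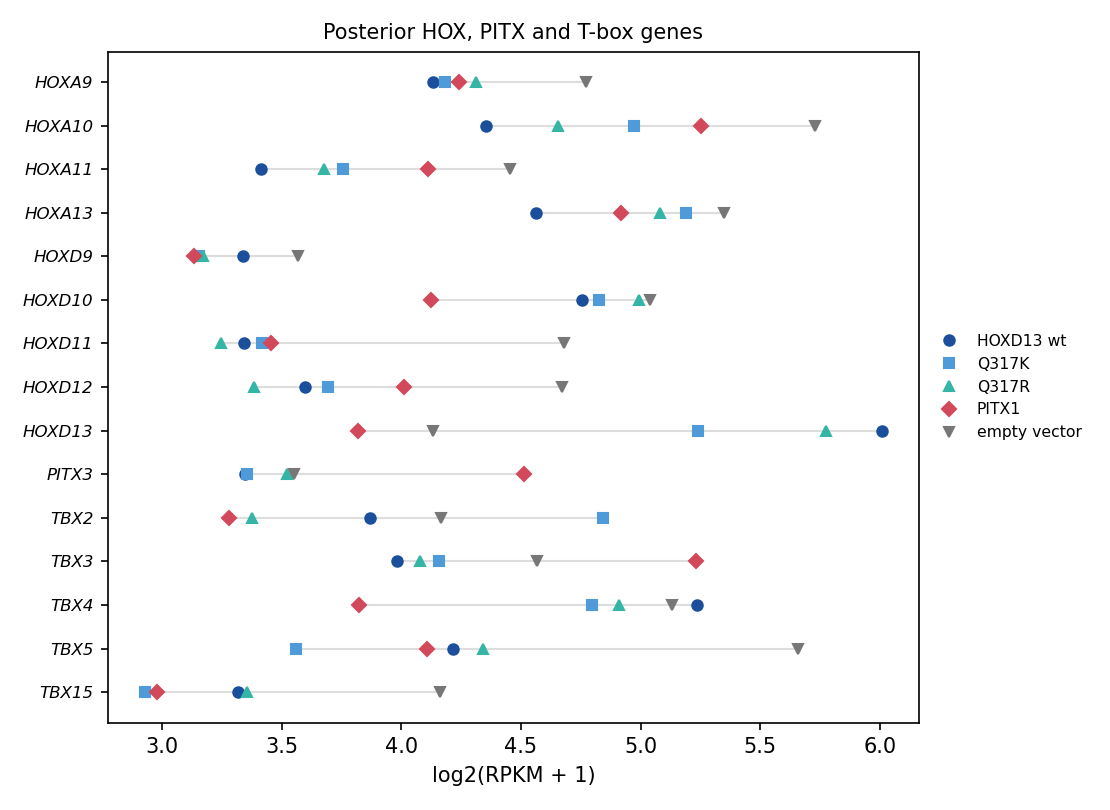
Level as log2(RPKM + 1) in each of the 5 libraries for posterior HOX, PITX and T-box genes, 1 point per library. HOXA11, HOXD11 and HOXD12 have the empty vector as the highest point, and PITX3 and TBX3 have the PITX1 library.

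Of 14 measured genes of cell division 5 were above and none below, all by small amounts, beside 13.1% and 7.25% of all genes, with a median of 0.38. CCNB2, a cyclin that drives mitosis, stood at 39.97, 41.2 and 39.8 against 31.9 and 21.2 RPKM. RRM2, which makes nucleotides for DNA synthesis, stood at 67.4, 58.9 and 71.6 against 50.99 and 43.1 RPKM, and the spindle factor TPX2 at 27.3, 26.7 and 29.3 against 22.3 and 18.6 RPKM. The empty vector was the lowest library in each and PITX1 lay between, with differences of 0.61, 0.48 and 0.43. TOP2A and PCNA were the other two, with differences of 0.43 and 0.40. Against PITX1 alone the list's median was 0.21, and against the empty vector 0.52.

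In the retinoic acid list, the vitamin A pathway of limb patterning, none of 12 was above and 2 were below, STRA6 and the nuclear receptor RXRG at 14.6, 16.5 and 19.2 against 52.9 and 32.3 RPKM, beside 13.1% and 7.25% of all genes. The median was −0.22, with −0.30 against the empty vector alone and −0.034 against PITX1 alone. After scaling by size factors 3 were below, the retinoic acid degrading enzyme CYP26C1 being the one added. The count below over all genes rose from 957 to 1217 with that scaling. The counts of the lists that follow stand beside the same 13.1% and 7.25%. Of 16 hedgehog and FGF genes 1 was above, the hedgehog effector GLI3, and by a difference of only 0.13, which overlapped after scaling by size factors. The median was 0.05, with −0.21 against the empty vector alone and 0.39 against PITX1 alone. Of 16 adhesion and guidance genes 2 were above, SEMA3D at 48.7, 48.2 and 45.6 against 42.3 and 24.8 RPKM and the receptor EPHB2 at 30.9, 21.5 and 20.1 against 16.7 and 19.02 RPKM, none was below and the median was 0.00. SEMA3D overlapped after that scaling, and the median ran from −0.17 without Q317K to 0.18 without PITX1. Of 10 immediate and stress response genes 2 were below, the growth regulator MYC at 36.4, 59.03 and 38.03 against 79.3 and 87.6 RPKM and GADD45B at 30.5, 38.9 and 44.4 against 49.1 and 79.3 RPKM, with a median of −0.22 that was −0.33 against the empty vector alone and 0.053 against PITX1 alone. None of 9 interferon response genes was separated, with a median of −0.12 that ran from −0.30 without Q317R to 0.19 without wild type.

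Markers of other cells were measured in all libraries, and their part in the differences above was not tested. The counts of separated markers stand beside 13.1% above and 7.25% below among all genes. After scaling by size factors they stand beside 1443 above and 1217 below of 13201 genes. Summed over the list, 10 muscle markers ranged from 75.1 to 146 RPKM in the HOXD13 libraries and stood at 102 in PITX1 and 104 in the empty vector; 1 was above, the embryonic myosin MYH3, and none below, while after scaling by size factors MYF5 and MYF6, factors of muscle commitment, were below. The 3 blood markers summed to 11.5 to 20.3 RPKM in the HOXD13 libraries, 868 in PITX1 and 16.6 in the empty vector. The high sum was that of globins that passed the RPKM filter, with HBE at 7.43, 5.08 and 2.798 against 747 and 6.77 RPKM. None of the 3 markers was separated. Other globins, under the filter and so outside the sum, were not raised in this way. HBAA and HBAD were lowest in PITX1, at 2.76 and 2.28 RPKM, and HBZ stood at 1.74 there and 3.47 in the empty vector. The list's median difference was −2.54 as filtered and −0.11 with no filter. The 5 endothelial markers summed to 74.5 to 154 RPKM in the HOXD13 libraries, 94.1 in PITX1 and 98.8 in the empty vector, with PECAM1 above and FLT1 below, and after that scaling TIE1 below in place of FLT1. The 4 epithelial markers summed to 53.3 to 58.5 RPKM in the HOXD13 libraries, 91.0 in PITX1 and 68.5 in the empty vector, with CDH1 below by a gap of 0.018. The 8 neural markers summed to 225 to 232 RPKM, against 176 and 193, with TUBB3 above at 169.8, 173 and 173 against 132 and 140.5 RPKM and SOX10 below. The 3 adipocyte markers summed to 57.2 to 101 RPKM, against 82.1 and 78.3, and none was separated. No marker of these lists that the table holds was at 0 in any library.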

How the data were processed

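RNA was selected on oligo-dT and read as single reads of 115 bp, per the labels' protocols. The authors deposited RPKM values for 21998 Ensembl transcripts, 1 column per virus, per the file headers; no source used here names the aligner, counter, genome build or annotation release. RPKM divides reads by transcript length and library total, so a library dominated by a few transcripts lowers the rest. Whole reads were recovered from ratios between columns in 100% of rows, within a tolerance of 0.001, and gave library totals of 14931544 (HOXD13 wt), 14069766 (Q317K), 16793118 (Q317R), 16114218 (PITX1) and 15274704 (empty vector). These totals served only for 95% counting intervals of named differences.

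The transcript of highest mean RPKM stood for each of 16737 Ensembl genes, and 13201 with at least 5 RPKM in any of the 5 libraries were used. Of these, 6903 (52.3%) had a symbol in the table; 235 entries carrying UniProt names were translated by hand after values had been seen. Values were compared as log2(RPKM + 1), which understates differences of low genes. Groups were read from the virus in the labels. Alternatives changed the pseudocount, filter, transcript, scaling and libraries.

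The compared groups, the gene lists and the rule for named genes were chosen with earlier results of these data known. The rule named 58 genes, of which 1 is not reported here: the 15 largest differences on each side among separated genes with a symbol, genes with a gap of at least 1, HOXD13 and PITX1, separated list members at least 1.5-fold apart (up to 6 a list), and the 5 largest differences that failed by 1 library. Other genes named were chosen after their values were seen. Steps were tested on simulated data. Python 3.11.15, numpy 2.4.6, pandas 2.3.3 and matplotlib 3.10.9 were used. The chromatin samples were not analysed here.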

Additional observations from a re-analysis of the deposited data

How the results depend on the processing

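Alternatives were run for the 58 genes of the naming rule, not for other genes given values. None of the 58 differences changed sign. A separated gene keeps its side under any pseudocount or filter, or with 1 library left out, so those settings were no check. Only the choice or sum of transcripts and the scaling could undo a separation. Of the 53 separated genes, 1 overlapped with the longest transcript (ANGI) and 2 after scaling by size factors (FLT1 and KCTD12). With transcripts summed, all 53 stayed separated. The filter of at least 20 RPKM left 47 of them. Some counts moved by over 1.5 times. With a pseudocount of 5 the 2-fold counts fell to 41 above and 47 below, and every form was at least 2-fold above both others in 5 genes and below in 2; with a pseudocount of 0.1 every form was at least 2-fold below in 11. With at least 20 RPKM in any library 831 genes lay above and 387 below, by the construction of the filter, which leaves fewer genes. Scaling by size factors, which ranged from 0.958 to 1.03, gave 1443 above and 1217 below. With 1 library left out at a time counts ranged from 2188 to 4087 above, 1367 to 4268 below, 67 to 185 above and 85 to 229 below at 2-fold, and 18 to 49 above and 13 to 100 below with every form 2-fold away. The share of above genes was 48.8% without PITX1 and 55.0% without Q317R. GLI3, HAND2 and SEMA3D, list members outside the rule, overlapped after scaling. The cartilage median was −1.61 without PITX1, 0.10 without the empty vector and 0.073 without Q317K. No paired analysis was possible because each virus has 1 library and no test was made. Depth limits the low genes; with 1 library per virus, culture variation cannot be told apart from the virus.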

Other observations

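Several genes outside the lists had nearly the same level in all 3 HOXD13 libraries; they were picked out after their values were seen and are given as a description. SDPR, a protein of caveolae, stood at 296, 289 and 263 against 137 and 139.5 RPKM, so that the forms were alike, the other libraries were alike, and the gap was 0.91. MATN2, a matrilin of connective tissue, stood at 22.3, 22.8 and 22.4 against 6.57 and 15.7 RPKM, with the empty vector between PITX1 and the HOXD13 forms. GATA6, a zinc finger transcription factor, stood at 4.76, 4.75 and 4.88 against 20.2 and 8.25 RPKM, and SEZ6L, a membrane protein known from brain, at 4.48, 4.15 and 4.24 against 15.9 and 9.11 RPKM. In GATA6 and SEZ6L the forms were the low group, and PITX1 was the highest library. GATA6 had only 62 reads in its lowest library, so counting error alone allows a wider spread of the forms than was seen.

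Among further separated genes, ODC1, the first enzyme of polyamine synthesis, stood at 169, 70.6 and 94.7 against 34.2 and 45.1 RPKM, and PDGFRL, a secreted protein related to PDGF receptors, at 84.1, 54.9 and 141 against 33.95 and 33.5 RPKM. Both were higher in every HOXD13 library, with differences of 1.38 and 1.34. SLC29A1, an equilibrative nucleoside transporter, stood at 33.1, 34.9 and 28.4 against 112 and 58.7 RPKM, and ST6GAL1, a sialyltransferase like ST3GAL1, at 7.901, 7.07 and 4.83 against 16.3 and 15.6 RPKM. CA9, a carbonic anhydrase known to respond to low oxygen, stood at 52.9, 13.5 and 36.96 against 85.7 and 76.6 RPKM, with Q317K the lowest form. SCUBE2, which helps release hedgehog proteins from cells, was lower at 7.93, 6.59 and 9.55 against 16.9 and 28.1 RPKM, while its relative SCUBE3 was higher at 27.6, 20.97 and 38.1 against 12.03 and 14.7 RPKM. None of these differences has a replicate check.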
